A study of Sus scrofa with 8 samples.

Results

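Collagen chain genes were taken from a table of left ventricular transcripts of 8 pigs as every gene whose symbol is COL, a number, A and a number. The table held 40 of them among 14718 genes. Of the 40, 29 had normalized counts of 10 or more in no fewer than 4 of the 8 libraries and were tested, and 11 did not. By textbook structure the 40 were divided into 11 fibrillar chains (8 tested), 8 chains of basement membranes (6 tested) and 21 other chains (15 tested). A normalized count is a gene's read count divided by the size factor of its library, so it compares libraries for one gene and does not compare genes of different length. The pigs were 4 wild type (WT) animals, pigs 1, 2, 4 and 5, called WT replicates 1 to 4, and 4 mutant animals, pigs 6 to 9, called mutant replicates 1 to 4. The genotype of mutant replicates 1 to 3 is given as a KCNH2 mutation and that of mutant replicate 4 as a KCNH3 mutation, while the series as a whole is described by KCNH2 alone. The protein of KCNH2 forms the pore of a potassium channel that ends the cardiac action potential, and its loss causes long QT syndrome, which the edited pigs were made to model. The labels used here state no age, sex, litter or exact edit, and p-values measure only the spread between these samples.

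Collagens are the main structural proteins of the extracellular matrix, and each molecule is a rope of intertwined chains that may be identical or different. Fibrillar collagens line up into the cross-striated cables that bear tension between and around heart muscle cells, and type I and type III are the most abundant of them in the ventricle. Basement membrane collagens form a sheet under endothelium and around muscle cells, built on a network of type IV. Other collagens decorate fibrils, form beaded filaments close to cells or span the plasma membrane. In the heart, fibroblasts make most of the fibrillar chains, while endothelial and mural cells contribute much of type IV.

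Libraries held 15.9 to 22.4 M reads (M is the SI prefix mega). Transcripts of the 13 mitochondrially encoded proteins made up 31.7% to 87.9% of them in WT and 15.9% to 27.5% in mutant libraries. WT replicates 3 and 4 had the highest of these shares, 87.9% and 65.2%, which left 2.53 M and 7.53 M reads of nuclear genes, while the other 6 libraries had 11.5 M to 16.2 M. A single read therefore counted as 4.84 normalized counts in WT replicate 3 and as 0.611 to 1.21 elsewhere. KCNH2 had normalized counts of 148 to 1909 in WT and 798 to 1839 in mutant libraries, and such a count cannot tell an edited transcript from an intact one. Markers of cardiomyocytes summed to 474606 to 613406 normalized counts in WT and 735453 to 755881 in mutant libraries, and 9 of the 10 listed had a row in the table. Members went both ways, with higher means in mutant libraries for the myosin heavy chains MYH7 (mean 127942 in WT and 256660 in mutant libraries) and MYH6 (36588 and 131352), and lower ones for the troponins TNNI3 (108910 and 69304) and TNNT2 (87472 and 70487). MYH7 and the calcium channel gene RYR2 are called higher in the authors' deposited table (adjusted p = 0.00161 and 0.00420), with limma adjusted p of 0.262 and 0.202.

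The level of collagen transcripts varied more among the WT pigs than it differed between the groups. All 40 chains together made up 1.09%, 0.449%, 1.56% and 0.253% of the nuclear-gene reads of WT replicates 1 to 4, and their shares in mutant replicates 1 to 4 were 0.531%, 0.931%, 1.49% and 1.40%. WT replicate 3 was the highest of the 8 libraries and WT replicate 4 the lowest, a 6.18-fold range that held all 4 mutant libraries. The mean share of WT pigs was 0.839% ± 0.601 and that of mutant pigs 1.09% ± 0.446 (SD, n = 4). Wilson 95% intervals of these shares were at most ± 0.0153 percentage points wide, which takes in counting error alone, because PCR copies carry no molecular identifiers. WT replicates 3 and 4 were also the libraries with the most mitochondrial reads, and they lay at opposite ends of the collagen range.

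**Figure D1:**
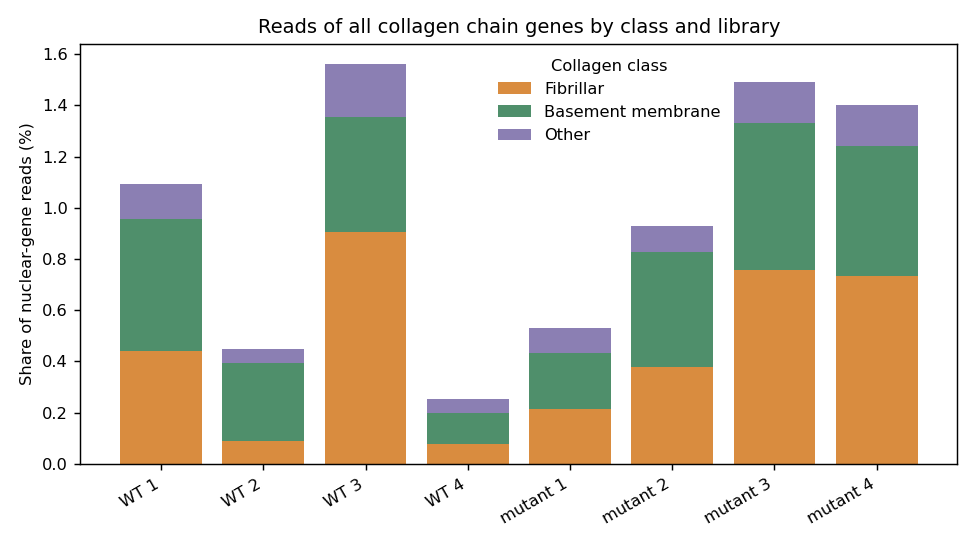
Stacked bars give the reads of the 40 collagen chain genes as a share of nuclear-gene reads (%) in each of 8 libraries, divided into fibrillar, basement membrane and other chains. The tallest bar (1.56%) and the shortest (0.253%) are both WT libraries, and the 4 mutant bars lie between them.

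Each class had its own range. Fibrillar chains took 0.439%, 0.0896%, 0.905% and 0.0760% of nuclear-gene reads in WT replicates 1 to 4, and mutant replicates 1 to 4 had 0.212%, 0.380%, 0.756% and 0.734%. Their range among WT libraries was 11.9-fold and among mutant libraries 3.56-fold. Basement membrane chains took 0.519%, 0.304%, 0.450% and 0.121% in WT and 0.222%, 0.449%, 0.575% and 0.509% in mutant libraries, a 4.29-fold range in WT and 2.58-fold in mutant libraries. Other chains took 0.0549% to 0.207% in WT and 0.0959% to 0.161% in mutant libraries. The groups overlapped in every class. Per read of basement membrane chains there were 0.847, 0.294, 2.01 and 0.628 reads of fibrillar chains in WT replicates 1 to 4, and mutant replicates 1 to 4 had 0.955, 0.845, 1.32 and 1.44, so WT held both the most fibrillar and the least fibrillar mixture.

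Among fibrillar chains, the type I and type III genes had the widest WT values. COL1A1, the larger share of the type I molecule, had normalized counts of 14127, 1523, 24184 and 334 in WT replicates 1 to 4, and mutant replicates 1 to 4 had 3848, 8964, 24121 and 20957. WT replicates 2 and 4 were low, WT replicate 1 lay among the mutant libraries, WT replicate 3 was just above the highest of them, and the highest WT value was 72.5-fold the lowest. The difference, mutant minus WT on the scale of log2(normalized count + 1), was 1.66 ± 1.25 (SE; limma adjusted p = 0.543). COL1A2, its partner chain, had 11605, 2065, 19887 and 288 normalized counts in WT and 4253, 6751, 15293 and 14064 in mutant libraries, in nearly the same order. Its difference was 1.37 ± 1.16 (SE; limma adjusted p = 0.585). COL3A1, the single chain of type III, had 11167, 1680.1, 49143 and 1534 in WT and 9217, 14267, 23767 and 24878 in mutant libraries. As for both type I chains WT replicate 3 was the highest library, and the difference was 1.44 ± 1.01 (SE; limma adjusted p = 0.516). Leaving out WT replicate 3 moved the COL3A1 difference to 2.45 (limma adjusted p = 0.228).

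Type V chains, which nucleate and thin the fibrils of type I, did not share one pattern. COL5A1 had 5045, 1804, 5198 and 755 normalized counts in WT and 1946, 3403, 6186 and 6037 in mutant libraries, with WT replicate 4 lowest and a difference of 0.70 ± 0.64 (SE; limma adjusted p = 0.613). COL5A2 ranged from 389 to 7548 in WT and from 997 to 4001 in mutant libraries. COL5A3 went another way, with 799, 874, 4704 and 3351 in WT and 651, 1155, 986 and 839.6 in mutant libraries. WT replicates 3 and 4 were high and the other 6 libraries were close together, so the groups overlapped through WT replicates 1 and 2. The difference of COL5A3 was -1.04 ± 0.57 (SE; limma adjusted p = 0.430), and without WT replicates 3 and 4 it was 0.088. COL24A1, a fibrillar chain of low level, had 22.3, 67.4, 218 and 63.1 in WT and 13.4, 31.9, 27.2 and 19.9 in mutant libraries, with a difference of -1.58 ± 0.74 (SE; limma adjusted p = 0.381). WT replicate 1 lay among the mutant libraries. COL27A1 had 77.1 to 217 in WT and 90.7 to 119 in mutant libraries, the narrowest values of any fibrillar chain, and a difference of -0.48.

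Among basement membrane chains, COL4A1, COL4A2 and COL18A1 had the smallest differences between the groups. COL4A1, the main type IV chain, had 28741, 15959.6, 29566 and 4967 normalized counts in WT and 10057, 22392, 28249 and 23996 in mutant libraries. WT replicate 4 was lowest, mutant replicate 1 next, and the difference was 0.30 ± 0.58 (SE; limma adjusted p = 0.825). COL4A2, which assembles with it, had 17318, 10436, 20115 and 4127 in WT and 6304, 15427, 18766 and 16369 in mutant libraries, and its difference was 0.25 ± 0.54 (SE; limma adjusted p = 0.841). COL18A1, a proteoglycan collagen of vessel walls and the precursor of endostatin, had 5173, 2927, 2897 and 1701 in WT and 2040.3, 3540.1, 5021 and 4550.2 in mutant libraries. Its difference was 0.29 ± 0.39 (SE; limma adjusted p = 0.741). For these 3 genes the mean difference was smaller than its standard error, and without WT replicates 3 and 4 it was -0.12 for COL4A1, -0.032 for COL4A2 and -0.12 for COL18A1.

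COL4A6, COL4A5 and COL15A1 had larger differences in the direction of higher mutant values. COL4A6, which with COL4A5 forms a type IV network of restricted distribution, had 16.7, 47.5, 67.8 and 17.0 normalized counts in WT and 80.6, 122, 150.2 and 135 in mutant libraries. All 4 mutant libraries lay above all WT libraries, although the values rest on 14 to 55 reads in WT and 132 to 210 in mutant libraries. The difference was 1.90 ± 0.58 (SE; limma adjusted p = 0.249). COL4A6 is called higher in the authors' deposited table, with a log2 fold change of 1.80 (adjusted p = 0.0240), and it is the only chain called there. COL4A5 had 515, 686, 475 and 40.0 in WT and 357, 1104, 1029 and 973 in mutant libraries, with WT replicate 4 far below the rest. Its difference of 1.46 ± 0.83 (SE; limma adjusted p = 0.438) was 0.52 without WT replicate 4. COL15A1, a basement membrane proteoglycan of muscle and capillaries, had 1584, 80.3, 2107 and 175 in WT and 3179, 770.0, 3024 and 3191 in mutant libraries. WT replicates 2 and 4 were low, mutant replicate 2 lay below WT replicates 1 and 3, and the difference was 2.24 ± 1.02 (SE; limma adjusted p = 0.363).

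**Figure D2:**
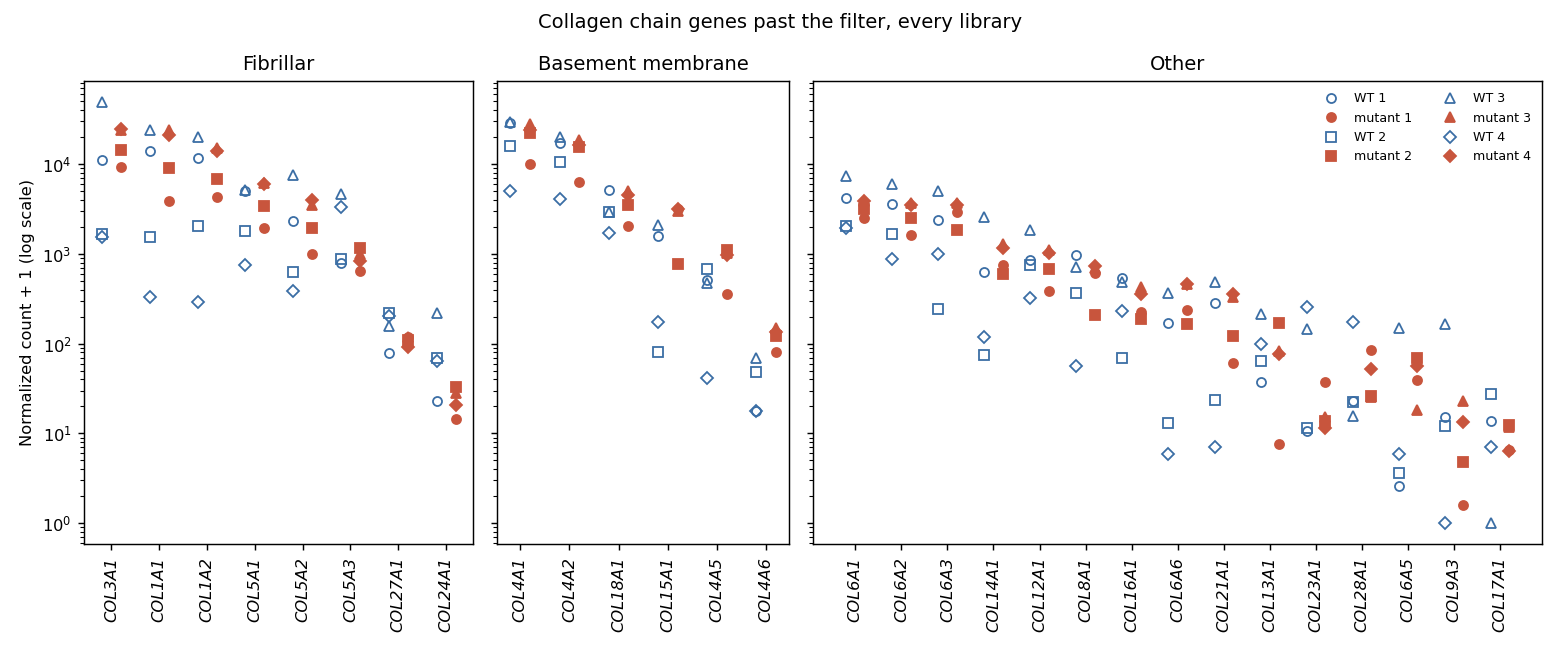
Points give the normalized count plus 1 (log axis) of the 29 tested collagen chain genes in each of 4 WT (open blue) and 4 mutant (filled red) libraries, with 1 symbol per replicate number, which does not pair animals. For most genes the WT points spread wider than the mutant points, and COL4A6 is the gene whose groups are separate.

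Beaded filament chains of type VI, which anchor cells to the interstitial matrix, differed in how far the WT libraries spread. COL6A1 had 4162, 2036, 7373 and 1938 normalized counts in WT and 2516, 3169, 3920.4 and 3881 in mutant libraries. The mutant values sat inside the WT range, with a difference of 0.00062 ± 0.43 (SE; limma adjusted p = 0.999). COL6A2 had 3570.3, 1676, 5968 and 869.9 in WT and 1635, 2540.0, 3664 and 3466 in mutant libraries, and it differed by 0.19 ± 0.56 (SE; limma adjusted p = 0.884). COL6A3, the long chain of the filament, had 2402, 245, 4961 and 990.0 in WT and 2904, 1842, 3734 and 3526 in mutant libraries, and WT replicate 2 was lower against the other libraries than it was for COL6A1. Its difference was 1.15 ± 0.78 (SE; limma adjusted p = 0.507). COL6A6, a homologue of COL6A3, had 167, 12.1, 368 and 4.85 in WT and 235, 166, 463 and 456 in mutant libraries. Its difference of 2.70 ± 1.20 was the largest of any collagen chain tested in limma (SE; limma adjusted p = 0.359), and WT replicates 1 and 3 overlapped the mutant values. The values of WT replicates 2 and 4 rest on 14 and 4 reads, and edgeR and DESeq2 gave COL6A6 differences of 1.35 and 1.28. COL6A5, another homologue, had 1.59, 2.59, 150.2 and 4.85 in WT and 38.5, 67.6, 17.2 and 55.6 in mutant libraries. WT replicate 3 was its highest library and the other 3 WT libraries its lowest, with a difference of 2.10 ± 1.28 (SE; limma adjusted p = 0.465). WT replicates 1, 2 and 4 had 2, 3 and 4 reads of COL6A5, and edgeR and DESeq2 gave differences of 0.38 and 0.24.

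Of the fibril-associated collagens, which bind to the surface of fibrils, COL14A1 had 619.8, 73.4, 2558 and 119 normalized counts in WT and 745, 592, 1279.9 and 1153 in mutant libraries. WT replicates 2 and 4 were below and WT replicate 3 above all mutant libraries, as for COL3A1, and the difference was 1.38 ± 0.96 (SE; limma adjusted p = 0.516). COL21A1 had 284, 22.5, 484 and 6.07 in WT and 60.5 to 354 in mutant libraries, with the same WT libraries low. COL12A1 and COL16A1 ranged from 324 to 1841 and from 69.1 to 536 in WT and stayed within those ranges in mutant libraries. COL9A3, best known from cartilage, had 0 to 165 in WT and 0.611 to 22.2 in mutant libraries. COL8A1, a short-chain collagen of vessel walls, had 55.8 to 977 in WT and 205 to 739.6 in mutant libraries. Among membrane-spanning chains COL23A1 had 9.54, 10.4, 145 and 252 in WT and 36.0, 12.9, 14.3 and 10.6 in mutant libraries, so WT replicates 3 and 4 were high as for COL5A3. The difference of COL23A1 was -1.40 ± 1.14 (SE; limma adjusted p = 0.568), and it was 0.67 without WT replicates 3 and 4. COL13A1 and COL17A1 had 36.6 to 213 and 0 to 26.8 in WT and 6.72 to 167 and 5.30 to 11.4 in mutant libraries. COL28A1, a chain found along nerves, had 14.5 to 172 in WT and 24.3 to 83.7 in mutant libraries.

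No collagen chain passed limma after adjustment, and neither did any other of the 11660 genes tested. The smallest adjusted p among the 29 was 0.249 and the largest 0.999. At an unadjusted p under 0.05, 2 of the 29 were higher in mutant libraries, COL4A6 and COL6A6, against 7.06% of all genes tested, and 0 were lower, against 6.8%. Groups did not overlap for 1 of 29 chains with mutant libraries higher, against 6.17% of all genes, and for 0 with mutant libraries lower, against 5.22%. With all 8 libraries in limma the collagen counts were thus near or under the background. In edgeR 0 chains passed after adjustment, and 0 of all 11660 genes did. By an unadjusted edgeR p under 0.05, 1 chain was higher, against 5.87% of all genes, and 3 were lower, against 9.01%. The 3 were COL5A3, COL23A1 and COL24A1. The authors' deposited table calls 1 of 34 chains with an adjusted p higher, against 1.32% of all genes, and 0 lower, against 3.23% (4.54% in either direction). DESeq2 on the reads recovered from the table likewise called COL4A6 alone, against 4.56% of all genes, and with a library left out it called 0 to 3 chains, against 1.00% to 8.04% of all genes. Leaving out WT replicate 3 gave 7 of 29 chains (24.1%) that were higher in limma at an unadjusted p under 0.05, against 7.71% of all genes in that fit. The 7 were COL3A1, COL6A3, COL6A5, COL6A6, COL14A1, COL15A1 and COL4A6, and 0 were lower, against 7.65%. No chain and no other gene passed limma after adjustment in that fit (smallest adjusted p of a chain = 0.155). Without WT replicates 3 and 4 together 6 chains (20.7%) were higher, against 8.64%, and 0 lower, against 7.38%. No chain passed limma after adjustment there (smallest adjusted p = 0.105), and 0.105% of all genes did. In both fits the share of chains on the higher side at that unadjusted threshold was above the background. WT replicate 3 was the highest library for 6 of 8 fibrillar and 9 of 15 other chains, so leaving it out lowers the WT means of those chains. Many chains shared their high and low libraries, so these counts are not of independent genes and rest on which WT pigs are kept.

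The 3 classes had medians in the same direction but with different members behind them. Of the tested fibrillar chains 5 had a higher mean log2 value in mutant libraries and 3 a lower one, with a median difference of 0.68. All 6 tested basement membrane chains were on the higher side, with a median of 0.88, and the lowest was 0.25. Of 15 other chains 11 were on the higher and 4 on the lower side, with a median of 0.26. Over all 29 chains 22 were on the higher side and the median was 0.30, beside 56.9% of all genes tested on the higher side and a median of 0.12. Means of log2 values give low WT libraries more weight than means of counts do. In the authors' deposited table, which compares mean levels, 16 of the same 29 chains were higher and the median log2 fold change was 0.096, with medians of 0.060 for fibrillar, 0.63 for basement membrane and -0.13 for other chains, and -0.025 over all genes tested. That table gives COL1A1, COL1A2 and COL3A1 log2 fold changes of 0.53, 0.25 and 0.18. Without WT replicates 3 and 4 the limma medians were 0.63, 0.19 and 0.55 for the fibrillar, basement membrane and other chains.

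**Figure D3:**
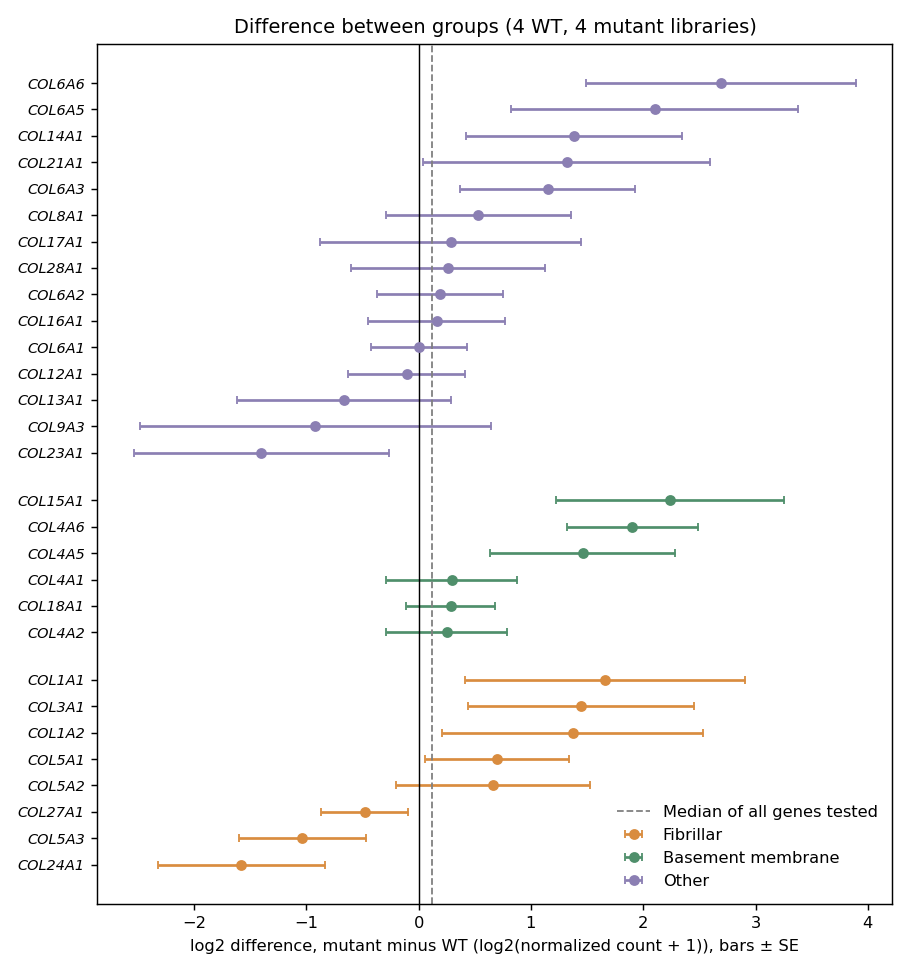
Points give the log2 difference, mutant minus WT, of each of the 29 tested collagen chain genes by class, with bars of ± SE (4 WT and 4 mutant libraries), and the dashed line marks the median of all genes tested (0.12). The 6 basement membrane chains lie to the right of 0, whereas fibrillar and other chains lie on both sides.

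Spread among animals was the larger feature of these genes. The SD of log2 values among WT libraries had a median of 1.84 over the 29 chains, beside 0.70 over all genes tested, and among mutant libraries 0.72, beside 0.33. The WT spread was the larger one in 28 of 29 chains, COL13A1 being the exception, and in 84.3% of all genes. By class the median WT and mutant SDs were 1.63 and 0.73 for fibrillar, 1.12 and 0.69 for basement membrane and 1.86 and 0.73 for other chains. The ratio of the highest to the lowest WT value was 69.2 for COL1A2, 32.0 for COL3A1, 34.8 for COL14A1 and 79.9 for COL21A1, but 3.04 for COL18A1 and 3.81 for COL6A1. Without WT replicate 3 it was still 42.3 for COL1A1 and 40.4 for COL1A2, and 7.28 for COL3A1.

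**Figure D4:**
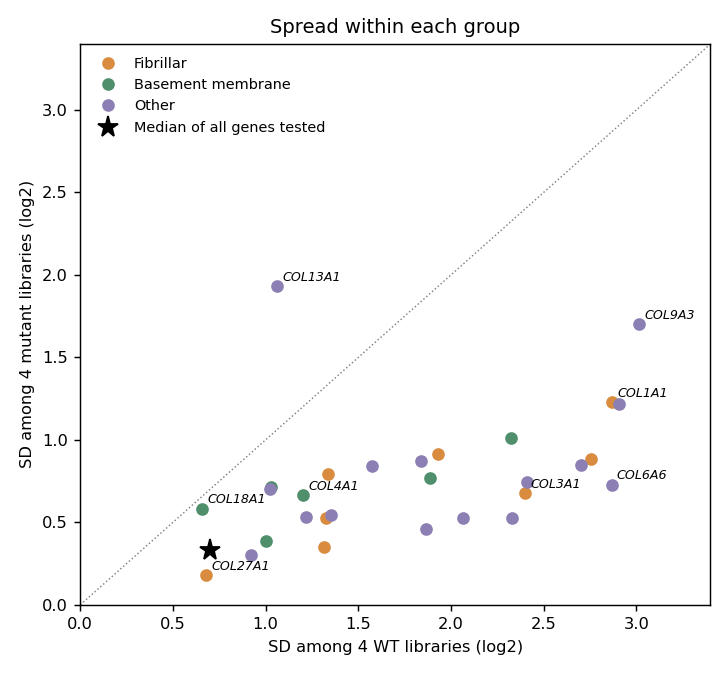
Points set the SD of log2 values among 4 WT libraries (x axis) against that among 4 mutant libraries (y axis) for each of the 29 tested collagen chain genes, and the star marks the medians of all genes tested (0.70 and 0.33). All points but COL13A1 lie below the dotted line of equal spread.

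The same libraries were often low in all 3 classes. WT replicate 4 was the lowest of the 8 libraries for 5 of 8 fibrillar, 4 of 6 basement membrane and 7 of 15 other chains. WT replicate 3 was the highest for 6 of 8 fibrillar, 2 of 6 basement membrane and 9 of 15 other chains. WT replicate 2 was low for fibrillar chains, with a median of -1.10 (log2) against each gene's mean over the 8 libraries, -0.19 for basement membrane chains and -0.74 for other chains, and differences between classes were not tested. Among mutant libraries replicate 1 was the lowest for 7 of 8 fibrillar, 5 of 6 basement membrane and 6 of 15 other chains.

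For 4 of 5 pairs of chains that assemble with each other, the ratio spanned a smaller range over the 8 libraries than either chain did, the exception being COL6A3 to COL6A1. The ratio of COL4A1 to COL4A2 was 1.66, 1.53, 1.47 and 1.20 in WT replicates 1 to 4, and mutant replicates 1 to 4 had ratios of 1.60, 1.45, 1.51 and 1.47. It spanned 1.38-fold over the 8 libraries, while COL4A1 spanned 5.95-fold and COL4A2 4.87-fold. The ratio of COL1A1 to COL1A2 was 1.22, 0.737, 1.22 and 1.16 in WT and 0.905, 1.33, 1.58 and 1.49 in mutant libraries. It spanned 2.14-fold, while COL1A1 spanned 72.5-fold and COL1A2 69.2-fold. COL6A1 to COL6A2 spanned 2.08-fold (1.07 to 2.23), with WT replicate 4 the highest. COL1A1 to COL3A1, chains of different molecules, spanned 5.81-fold, from 0.218 in WT replicate 4 to 1.27 in WT replicate 1. COL5A1 to COL5A2 spanned 4.17-fold, from 0.689 in WT replicate 3 to 2.87 in WT replicate 2. COL6A3 to COL6A1 spanned 9.58-fold, from 0.120 in WT replicate 2 to 1.15 in mutant replicate 1, while COL6A1 itself spanned 3.81-fold.

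For all 6 of these ratios the values of the groups overlapped. The log2 ratio of COL6A3 to COL6A1 averaged -1.35 ± 1.15 over WT and -0.20 ± 0.42 over mutant pigs (SD, n = 4), which is 1.15 apart (exact two-sided permutation p = 0.0571, 0.343 after Benjamini-Hochberg adjustment over 6 ratios). Exact permutation p-values of the other 5 ratios were 0.314 to 0.971 (0.943 to 0.971 after adjustment). The smallest p that 70 assignments of the libraries allow is 0.0286. After adjustment over 6 ratios, 1 ratio alone could not pass the threshold even with fully separate groups. The adjusted values therefore cannot decide whether a ratio differed between the groups.

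**Figure D5:**
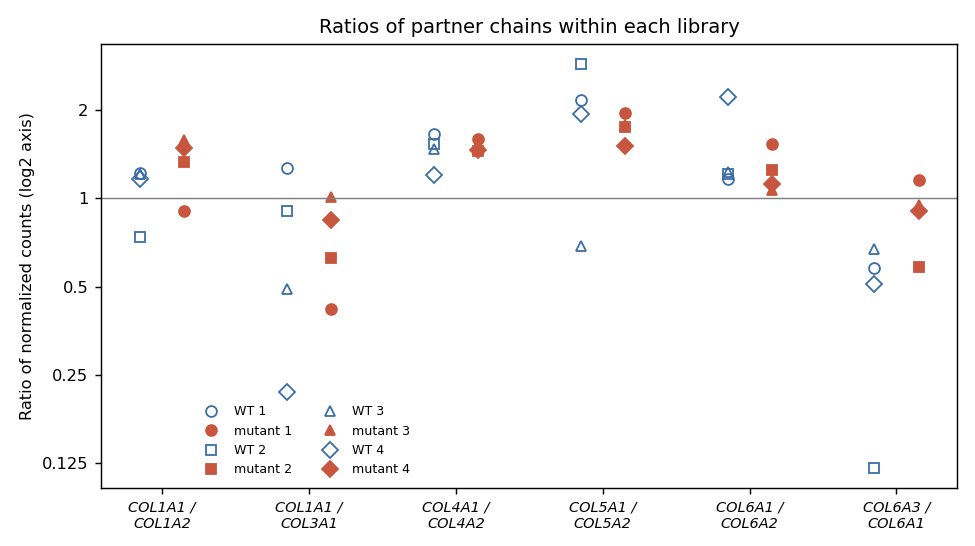
Points give the ratio of normalized counts (log2 axis) of 6 pairs of collagen chains in each of 4 WT (open blue) and 4 mutant (filled red) libraries. The points of COL4A1 to COL4A2 lie between 1.20 and 1.66, while those of COL6A3 to COL6A1 run from 0.120 to 1.15.

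The 11 chains under the filter were detected by few reads. COL4A3 and COL4A4, the type IV chains of the kidney filter, had 0 to 32 and 0 to 7 reads per library. The cartilage chains COL2A1, COL11A1, COL11A2, COL9A1 and COL10A1 had at most 11, 16, 9, 22 and 2 reads in any library. COL25A1, a membrane-spanning chain, had at most 41 reads, reached in WT replicate 2. COL8A2, COL19A1 and COL22A1 had at most 8, 5 and 4 reads. COL19A1 and COL22A1 had 0 reads in all 4 WT libraries. In each library this allows up to 3 reads, or 2.38, 2.59, 14.5 and 3.64 normalized counts in WT replicates 1 to 4. Their highest mutant values, 3.05 and 2.65, lie above the limits of WT replicates 1 and 2 and below those of WT replicates 3 and 4. These values rest on few reads, and the authors' deposited table gives unadjusted Wald p of 0.542 and 0.567. At the edge of the filter, COL17A1 reached 10 in 4 libraries and was tested, while COL4A3, COL25A1 and COL9A1 reached it in 2.

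Genes that modify, fold, cleave and cross-link collagen mostly overlapped between the groups. Of the 40 tested, 1 lay higher in all mutant libraries, against 6.17% of all genes, and 1 lower, against 5.22%. MIA3, a procollagen export factor, had 610 to 783 normalized counts in WT and 816 to 1139.9 in mutant libraries, and P3H1, a prolyl hydroxylase of collagen, had 778 to 950.4 in WT and 459 to 746 in mutant libraries. Both were named after their values were seen. Of 44 listed, 42 had a row and 40 were tested, with 28 on the higher and 12 on the lower side and a median difference of 0.31, which was -0.057 without WT replicates 3 and 4. None passed limma, as no gene of the 11660 tested did. By an unadjusted p under 0.05, 2 of 40 were higher, against 7.06% of all genes, and 0 lower, against 6.8%. That is no more than the background. The authors' deposited table calls none of them. The 2 were FKBP14, a collagen-folding prolyl isomerase of the endoplasmic reticulum, and SEC24D, a coat subunit that helps export procollagen. FKBP14 had 54.0, 11.2, 0 and 12.1 normalized counts in WT and 59.9, 52.4, 102 and 98.7 in mutant libraries, with WT replicate 1 among the mutant values. Its difference was 2.97 ± 1.12 (SE; limma adjusted p = 0.304), and 1.55 without WT replicates 3 and 4. The 0, in WT replicate 3, allows up to 3 reads or 14.5 normalized counts, and edgeR and DESeq2 both gave FKBP14 a difference of 1.91. SEC24D had 459, 330.0, 150.2 and 234 in WT and 571, 409, 594 and 571 in mutant libraries, and it differed by 0.97 ± 0.35 (SE; limma adjusted p = 0.290). By step, 9 of 13 hydroxylation and glycosylation genes, 11 of 12 folding and export genes, 4 of 8 propeptide-cleaving genes and 4 of 7 cross-linking genes were on the higher side.

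Receptors and binding partners of collagen were on the higher side in 8 of 9 tested genes, against 56.9% of all genes. Their median was 0.75, against 0.12 over all genes, and without WT replicates 3 and 4 it was 0.32, against 0.015. None passed limma, as no gene did, and none is called in the authors' deposited table. By an unadjusted p under 0.05, 3 of 9 were higher, against 7.06% of all genes, and 1 was lower, against 6.8%. ITGA1, the integrin subunit that binds type IV collagen, had 327, 469, 305 and 556 normalized counts in WT and 642, 632, 672 and 771 in mutant libraries. The groups did not overlap, as for 6.17% of all genes with mutant libraries higher, and the difference was 0.75 ± 0.25 (SE; limma adjusted p = 0.270). ITGA11, an integrin subunit for fibrillar collagen on fibroblasts, had 145, 40.6, 14.5 and 25.5 in WT and 103, 106, 205 and 169.5 in mutant libraries. The value of WT replicate 3 rests on 3 reads. DDR2, a receptor tyrosine kinase for fibrillar collagen, had 38.0 to 111 in WT and 90.4 to 198 in mutant libraries. ITGA10 went the other way, with 68.3 to 223 in WT and 30.5 to 89.6 in mutant libraries. The differences of ITGA11, DDR2 and ITGA10 were 1.82, 1.08 and -1.31 (limma adjusted p = 0.304, 0.344 and 0.341).

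Cell type markers varied among the same WT libraries, and in bulk tissue fewer cells of a type and less RNA per cell cannot be told apart. Fibroblast markers, all 10 of them tested, summed to 26917, 10577, 51386 and 28961 normalized counts in WT and to 21554 to 36495 in mutant libraries. By an unadjusted limma p under 0.05, 0 of 10 were higher, against 7.06% of all genes, and 0 lower, against 6.8%. A list of 10 is too short to tell 0 from those shares. WT replicate 2 was the lowest library for 7 of the 10 and WT replicate 3 the highest for 5. In WT replicate 4, where type I chains were lowest, the fibroblast sum lay within the mutant range, though 21048 of it came from GSN, an actin-severing protein that many cell types make. The proteoglycan genes DCN and LUM had 2758 and 998 there, against 4525 to 6431 and 1224 to 2965 in mutant libraries. Markers of activated fibroblasts summed to 4077, 3721, 4011 and 619 in WT and to 675 to 1396 in mutant libraries. Of the 5 tested, 4 were on the lower side and 1, CTHRC1, on the higher. By an unadjusted limma p under 0.05, 0 were higher, against 7.06% of all genes, and 0 lower, against 6.8%. CTHRC1 had 76.3, 4.32, 0 and 2.43 in WT and 6.83 to 21.9 in mutant libraries. Its mean count was lower in mutant libraries (20.8 in WT and 17.5 in mutant). Its log2 difference was -0.33 in edgeR and -0.29 in the authors' deposited table. POSTN, a matrix protein that activated fibroblasts secrete and one of those markers, had 2988, 2779, 1981 and 139.5 in WT and 323 to 744 in mutant libraries. The difference of POSTN was -1.43 ± 0.88 (SE; limma adjusted p = 0.472), and those of TNC, FAP and MEOX1 were -1.47, -0.13 and -0.40. COMP was at 0 in 6 of the 8 libraries.

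Endothelial markers, all 10 of them tested, summed to 22486, 12089, 11379.8 and 48028 in WT and to 18257 to 27553 in mutant libraries. WT replicate 4 was the highest library for 9 of the 10, yet it was the lowest for COL4A1 and COL4A2. Mural cell markers summed to 12867 to 37366 in WT and to 17046 to 26984 in mutant libraries, and 2 of 10 were higher at an unadjusted p under 0.05, against 7.06% of all genes, and 1 lower, against 6.8%. The higher ones were KCNJ8 and ABCC9, subunits of a potassium channel (limma adjusted p = 0.343 and 0.337). The lower one was TAGLN, an actin-binding protein of smooth muscle, with 2358 to 9297 normalized counts in WT and 1643 to 2478 in mutant libraries (limma adjusted p = 0.228), and the authors' deposited table calls it lower (adjusted p = 0.00804). KRT19, a keratin on the mesothelial list, was under the filter, with 0 to 120.1 in WT and 0 to 5.32 in mutant libraries, and is also called lower there (adjusted p = 0.0195). Chondrocyte markers summed to at most 130.4 in any library, and MATN1 was at 0 in 6 and ACAN in 5 of the 8. Neutrophil markers summed to 2444 in WT replicate 2 and to 14.0 to 418 in the other libraries. The part of cell content in the collagen differences was not tested.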

How the data were processed

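Left ventricular RNA of 8 pigs, 4 WT and 4 mutant by genotype label, was analysed. Per the labels' protocols, mRNA was captured on poly-T beads and copied from random hexamers for NEBNext Ultra libraries. No source says that counting used strand, so overlapping genes may share reads. The authors deposited 1 table of 14720 rows with a normalized count per library (signal: read count over a size factor), the log2 fold change, its standard error, a Wald score and p-values of their comparison, mutant against WT, per the file headers. DESeq2 and the build GRCh38, a human one, are named per the submitters' processing notes. The aligner, read counter and annotation were not given in the sources, and no coordinates are printed.

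Rows named for an annotation source (2, with 0.392% to 0.853% of reads) were left out. All values (100%) were whole multiples of 1 read within a tolerance of 1e-06 reads, so reads were recovered. Genes reaching 10 normalized counts in 4 libraries were tested with limma 3.58.1 in R 4.3.3 (log2(normalized count + 1), trended robust prior, Benjamini-Hochberg threshold 0.05), after a check on simulated counts. Alternatives were edgeR 4.0.16 (quasi-likelihood) and DESeq2 1.42.0 on recovered reads, other scalings, pseudocounts, filters and priors, and libraries left out. Ratios of chains were tested by exact permutation. DESeq2 with libraries left out was added for COL4A6 after its values were seen. All 40 chains matched a pig symbol of the reference tables.

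The members, classes and gene lists were chosen with earlier results of these data known. Every chain was accounted for. Values per library were given for the 4 highest and the 3 of smallest p in each class and for chains the authors call, and COL21A1, COL23A1, COL5A2 and COL27A1 were added after their values were seen. Of the other lists, genes with an unadjusted p under 0.05 or called by the authors were named, at most 4 per list. MIA3, P3H1, MYH6, TNNI3, TNNT2, DCN, LUM, GSN, POSTN, CTHRC1, TNC, FAP, MEOX1, COMP, MATN1 and ACAN met neither condition and were named outside that rule.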

Additional observations from a re-analysis of the deposited data

Results flagged for a closer look

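Among the 29 tested chains, the highest and the lowest library of each group of 4 were set against the other 3 on the log2 scale, 58 groups in all, and 5 stood apart by Dixon's ratio at its 95% critical value. Chance sets apart about 1 in 20 groups.

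COL4A5 was set apart in both groups by a low library. WT replicate 4 had 40.0 normalized counts against 475 to 686 in the other WT libraries (ratio 0.870), and mutant replicate 1 had 357 against 973 to 1104 (ratio 0.888). COL4A1 and COL4A2 were lowest in the same libraries of each group. Mutant replicate 2 was low for COL15A1, with 770.0 normalized counts against 3024 to 3191 in the other mutant libraries (ratio 0.962), and for COL8A1, with 205 against 609.6 to 739.6 (ratio 0.849). COL28A1 had 172 in WT replicate 4 against 14.5 to 22.3 in the other WT libraries (ratio 0.833), and Schwann cell markers summed to 433 there and to 231 to 419.8 in the other 7 libraries.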

How the results depend on the processing

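No chain passed after adjustment under any limma setting, where 0% to 0.105% of all genes passed, or in edgeR, where 0 genes did. DESeq2 on recovered reads called 1 chain, COL4A6 (1.80, adjusted p = 0.0240), and 4.56% of all genes. With DESeq2, COL4A6 remained called without WT replicate 2 or 3, mutant replicate 1, or WT replicates 3 and 4 (adjusted p = 0.00160 to 0.0350), and was not called without WT replicate 1 or 4 or mutant replicate 2, 3 or 4 (adjusted p = 0.0505 to 0.180). The same fits called 0 to 3 chains. COL5A3, COL23A1 and COL24A1 were called, lower, without WT replicate 1, COL5A3 and COL23A1, lower, without WT replicate 2, and COL6A5, higher, without WT replicate 3 or WT replicates 3 and 4. Mutant replicate 4 is the library labelled KCNH3. Chains higher at an unadjusted p under 0.05 numbered 2 of 29 in the main fit, against 7.06% of all genes. They numbered 1 with edgeR, against 5.87%, 7 without WT replicate 3, against 7.71%, and 6 without WT replicates 3 and 4, against 8.64%. Their number was 1 with DESeq2, a plain prior or a pseudocount of 0.5, 0 with a minimum of 100, and 1 to 7 with a library left out. Chains lower numbered 0 in the main fit, against 6.8%, and 3 with edgeR, against 9.01%. Their number was 4 with DESeq2, 1 with a plain prior or quantile rescaling, and 0 to 3 with a library left out (3 without WT replicate 1). Counts given here without a share over all genes were not set against a background and are not read as results. Over the alternatives the median ran from 0.060 to 1.26 for fibrillar, 0.19 to 1.23 for basement membrane and -0.13 to 0.55 for other chains.

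Some differences changed sign. COL4A1 and COL4A2 were -0.27 and -0.23 without WT replicate 4 and -0.12 and -0.032 without WT replicates 3 and 4. Without both, COL18A1 was -0.12, COL5A3 0.088 (from -1.04) and COL23A1 0.67 (from -1.40). COL6A1 was -0.20 with DESeq2, -0.18 with edgeR, and -0.23, -0.26, -0.079 and -0.075 without WT replicate 2 or 4 or mutant replicate 3 or 4. COL6A2 was -0.095 with DESeq2, -0.077 with edgeR and -0.29 without WT replicate 4. COL5A2 was -0.063 with DESeq2 and -0.037 with edgeR. With a library left out, the highest values were 0.62 for COL4A1, 0.60 for COL4A2, 0.38 for COL6A1 and 0.64 for COL6A2. Ratio differences ran with a library left out from 0.11 to 0.46 for COL1A1/COL1A2, -0.26 to 0.58 for COL1A1/COL3A1, -0.045 to 0.11 for COL4A1/COL4A2, -0.40 to 0.29 for COL5A1/COL5A2, -0.30 to 0.031 for COL6A1/COL6A2 and 0.58 to 1.41 for COL6A3/COL6A1. Without WT replicates 3 and 4 COL1A1/COL3A1 was -0.64, COL4A1/COL4A2 -0.083, COL5A1/COL5A2 -0.52 and COL6A1/COL6A2 0.049. The cause was not tested. No paired analysis was possible because the labels number the animals 1, 2, 4 and 5 and 6 to 9 and so share no number between groups. Depth limits chains of few reads most in WT replicate 3.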

Other observations

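Several chains are next to each other in the pig reference table, with no coding gene between them, and neighbours did not always have like values. COL4A1 and COL4A2 are neighbours and kept a ratio of 1.20 to 1.66. COL3A1 and COL5A2 are neighbours, and both were highest in WT replicate 3 and low in WT replicates 2 and 4. COL4A5 and COL4A6 are neighbours, and COL4A6 was 3.24% to 42.4% of COL4A5 in WT and 11.1% to 22.6% in mutant libraries by normalized count, highest in WT replicate 4 where COL4A5 was lowest. COL4A3 with COL4A4 and COL9A1 with COL19A1 are also neighbours but had few reads. The reference table is of assembly Sscrofa11.1, which is not known to be the build behind the counts.

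The balance of type V chains varied widely among WT libraries. By normalized count the ratio of COL5A3 to COL5A1 was 0.158, 0.484, 0.905 and 4.44 in WT replicates 1 to 4, and mutant libraries had 0.139 to 0.339. WT replicates 2 to 4 lay above all mutant libraries, and WT replicate 1 lay among them. The ratios of COL5A3 to COL5A1 and of COL4A6 to COL4A5 were chosen after their values were seen and were not tested.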
